A study of Homo sapiens with 12 samples.

Results

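The 4 genes described here are DUOX1 and DUOX2, which encode the dual oxidases, and DUOXA1 and DUOXA2, which encode their maturation factors. They were chosen by name, as 4 of the 29744 gene entries in the deposited count table, and with their levels in these cells already known. Their levels and the differences between groups are therefore given as a description, with no test. Tests are given for other genes.

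Dual oxidases are NADPH oxidases of the plasma membrane that release hydrogen peroxide to the outside of the cell. Each must be carried from the endoplasmic reticulum to the apical surface by a maturation factor, and the usual partners are DUOX1 with DUOXA1 and DUOX2 with DUOXA2. The peroxide serves hormone synthesis in the thyroid gland and lactoperoxidase and related host defence at mucosal surfaces, where DUOX1 is regarded as the more constant enzyme and DUOX2 as the one that inflammatory signals induce.

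RNA was sequenced from an established triple-negative breast cancer (TNBC) cell line in 4 groups with 3 libraries each. MB157 iEV cells were parental MB157 cells with a doxycycline-inducible empty vector, and MB157 iSOX2 cells were the same cells with an inducible SOX2, a transcription factor of progenitor cells. MB157R iEV cells, which also carried the empty vector, came from MB157 cells that had become resistant to LY3039478, a γ-secretase inhibitor (GSI) that blocks the release of the NOTCH1 intracellular domain (N1-ICD), during 25 weeks at 1 µM. MB157R iN1-ICD cells carried an inducible NOTCH1 construct without the extracellular part. All groups, controls included, received doxycycline for 72 h, at 1 µg/ml according to the labels. The labels call the parental genotype wild type, although the study describes a NOTCH1 gene in MB157 from which internal exons are missing. The sources used here do not state whether MB157R is 1 clone or whether the inhibitor was present when RNA was taken. The labels number the replicates without naming separate cultures, so the p-values below measure the spread between these libraries.

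The libraries held between 32773820 and 49055208 estimated counts, so that 3 counts over a group of 3 libraries, the floor used below, amounted to between 0.0226 and 0.0260 CPM (counts scaled to the library size). SOX2 stood at 7.10 ± 0.544 CPM in MB157 iEV and 308 ± 23.3 CPM in MB157 iSOX2, and NOTCH1 stood at 92.4 ± 8.37 CPM in MB157R iEV and 2322 ± 487 CPM in MB157R iN1-ICD (SD, n = 3), so both inducible genes were high in the group named for them. All 7 mammary epithelial markers, EPCAM, CDH1, CLDN4 and 4 keratins, reached 1 CPM in each group. The T cell marker CD3E and the thyrotropin receptor TSHR had 0 counts in every library. The parental iEV libraries are the controls of both the resistant and the SOX2 comparison, and the MB157R iEV libraries enter both the resistant and the N1-ICD comparison.

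The 4 genes lie side by side on the long arm of chromosome 15 (GRCh38, chr15:45092650-45165574), within 72.9 kb. From left to right they are DUOX2 on the minus strand (45092650 to 45114172, 34 exons), DUOXA2 on the plus strand (45114326 to 45118421, 6 exons), DUOXA1 on the minus strand (45117366 to 45129879, 9 exons) and DUOX1 on the plus strand (45129994 to 45165574, 34 exons). Each oxidase thus starts head to head with its own maturation factor. The start of DUOX2 was 153 bases from that of DUOXA2, and the start of DUOX1 was 114 bases from that of DUOXA1. The 3′ ends of DUOXA2 and DUOXA1 overlap by 1056 bases on opposite strands, and the authors counted reads by strand. The intergenic stretches between the paired starts are shown because each holds the sequence immediately upstream of both genes of a pair. They run 5′ to 3′ on the plus strand, from RefSeq on GRCh38, and capitals mark each CpG and a TATAAA.
DUOX2 and DUOXA2, chr15:45114173-45114325: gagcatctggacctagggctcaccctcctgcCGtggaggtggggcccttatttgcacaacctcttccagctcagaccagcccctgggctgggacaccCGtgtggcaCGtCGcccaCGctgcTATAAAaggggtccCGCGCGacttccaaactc
DUOXA1 and DUOX1, chr15:45129880-45129993: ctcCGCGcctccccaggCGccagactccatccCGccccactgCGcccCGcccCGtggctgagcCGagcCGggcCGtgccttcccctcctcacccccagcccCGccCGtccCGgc

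The stretch between DUOX2 and DUOXA2 had a GC content of 63.4% with 8 CpG, and its TATAAA began 32 bases before the start of DUOXA2. The stretch between DUOXA1 and DUOX1 had a GC content of 80.7% with 13 CpG in fewer bases, and no TATAAA on either strand. RefSeq promoter windows of 300 bases, from 250 bases before to 50 after a start, were found for all 4 genes, 5 windows in all because DUOXA1 has a second start downstream. The windows of DUOX2 and DUOXA2 shared 253 bases, and those of DUOX1 and the upstream start of DUOXA1 shared 214. TATAAA, searched on both strands as were all motifs here, was present in 11.5% of 35116 such windows. Its match in the window of DUOX2 is the same 6 bases read from the other strand.

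Letters known from factors of this study were searched in the same windows. TGGGAA, the core recognized by RBPJ, the DNA-binding partner of N1-ICD, was in 24.0% of all windows and in none of the 5. The SOX letters AACAAT were in 10.1% of all windows, and of the 5 only that of the downstream DUOXA1 start held them, as ATTGTT at 15 bases before the start, while ACAAAG (16.1% of windows) was in none. CACNAG, an N-box of HES repressors, was in 38.0% of all windows and matched once in the DUOX1 window and once in that of the upstream DUOXA1 start. The E-box CACGTG (7.26%) and the STAT letters TTCNNNGAA (7.66%) and the STAT6 motif, with a spacer 1 base longer (6.44%), had no match in the 5 windows. A match here is a run of letters and not a measured binding site.

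DUOX1 was the most abundant of the 4 genes per length in MB157R iEV and was nearly absent from parental cells. In MB157 iEV it had 2, 0 and 0 estimated counts in replicates 1, 2 and 3, and in MB157 iSOX2 it had 9, 4 and 9. In MB157R iEV the 3 libraries had 607, 615 and 585 counts, and in MB157R iN1-ICD they had 739, 593 and 644. Every MB157R library lay far above every parental library, whereas both MB157R groups overlapped. In such bulk RNA, fewer cells that express a gene and less RNA per cell cannot be told apart. The means were 13.7 ± 1.47 CPM in MB157R iEV and 15.4 ± 0.693 CPM in MB157R iN1-ICD, against 0.171 ± 0.0712 CPM in MB157 iSOX2. In MB157 iEV the mean was 0.0205 CPM, under the floor of 3 counts. The level in MB157R iEV was 668-fold that in MB157 iEV, with a 95% counting interval from 217 to 6495 because the denominator rests on 2 counts, both in replicate 1. Intervals and floors here cover counting error only.

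DUOX2 was present in all 4 groups, though at a few counts per library in parental cells. The counts were 3, 7 and 3 in MB157 iEV, 5, 13 and 14 in MB157 iSOX2, 153, 164 and 206 in MB157R iEV and 290, 396 and 278 in MB157R iN1-ICD. The parental groups overlapped, and every MB157R iN1-ICD library lay above every MB157R iEV library. The mean levels were 0.111 ± 0.0490, 0.243 ± 0.105, 3.93 ± 0.395 and 7.61 ± 2.03 CPM in the same order. MB157R iEV stood at 35.5 times the level of MB157 iEV (counting interval 20.3 to 66.2).

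DUOXA1, the maturation factor paired with DUOX1, followed the same order of groups. Its counts were 1, 4 and 2 in MB157 iEV, 1, 5 and 5 in MB157 iSOX2, 239, 225 and 202 in MB157R iEV and 362, 341 and 361 in MB157R iN1-ICD. The parental groups overlapped and the MB157R groups did not. The means were 0.0583 ± 0.0331, 0.0831 ± 0.0508, 5.06 ± 0.748 and 8.32 ± 0.344 CPM. The difference between MB157R iEV and MB157 iEV was 86.8-fold (counting interval 39.9 to 207).

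DUOXA2, the maturation factor paired with DUOX2, was at or near 0 everywhere. It had 0 counts in all 6 parental libraries, 0, 0 and 1 count in MB157R iEV and 2 counts in each MB157R iN1-ICD library. The mean of 0.0470 CPM in MB157R iN1-ICD was above the floor of 3 counts, which is 0.0234 CPM there, and no other group reached its floor. The 6 counts in MB157R iN1-ICD against 1 in MB157R iEV gave a ratio of 6.78 with a counting interval from 0.753 to 286. In the same MB157R iN1-ICD libraries DUOX2, whose start is 153 bases away, had a total of 964 counts.

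**Figure D1:**
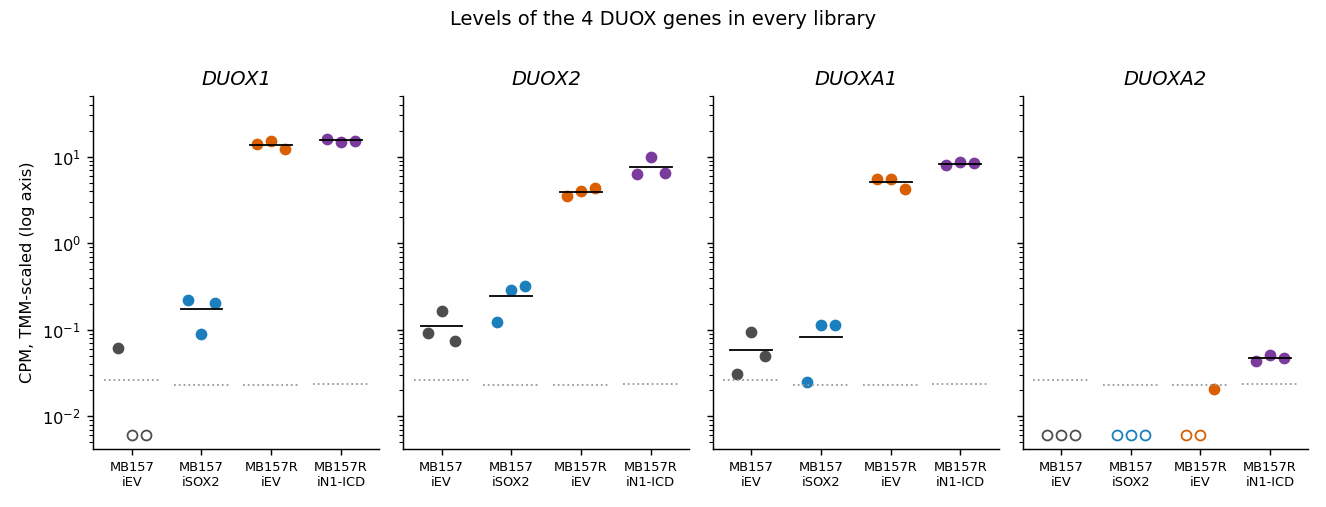
Level of each gene in every library, as TMM-scaled CPM on a log axis, with 1 point per library, open circles at the bottom for 0 counts, a bar at the mean of 3 libraries where none is 0, and a dotted line at the floor of 3 counts over the group. DUOX1, DUOX2 and DUOXA1 lie between 3.51 and 16.2 CPM in MB157R and at or under 0.316 CPM in parental cells, while DUOXA2 stays at or under 0.0503 CPM in all groups.

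Of the 4 genes, 3 had MB157R iEV libraries that all lay above the MB157 iEV libraries (DUOX1, DUOX2 and DUOXA1). The same held for 34.2% of the 21103 entries with a count in these 6 libraries, and nothing is read from the count of 3 because this contrast was known when the genes were chosen. On the scale of log2(CPM + 0.5), which understates changes of low genes, the shift was 4.77 for DUOX1, 3.32 for DUOXA1 and 2.86 for DUOX2. Of the 14628 entries ranked, 2.49%, 5.29% and 6.69% had a larger positive shift than these. DUOX1 passed the authors' filter for this comparison, and DUOX2, DUOXA1 and DUOXA2 did not. The fit without any filter held them too, and no test result is given for the 4 genes.

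With SOX2 induced in parental cells, DUOX1 alone had no overlap between groups, 1 of 4 genes against 26.2% of 21025 entries, and again nothing is read from the count. The 22 counts of DUOX1 in MB157 iSOX2 against 2 in MB157 iEV gave an 8.33-fold higher level, with a counting interval from 2.40 to 85.8. The level reached, 0.171 CPM, was far below that in MB157R iEV, which was 80.1-fold higher (counting interval 52.9 to 129). DUOX2 stood at 2.20 times its level in MB157 iEV (1.12 to 4.54) and DUOXA1 at 1.43 times (0.495 to 4.25), and the libraries of both genes overlapped. None of the 4 genes passed the authors' filter in this comparison. SOX2 itself was at 308 CPM in MB157 iSOX2 and at 60.3 ± 6.26 CPM in MB157R iEV, groups that differ in the cell line as well as in SOX2.

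With N1-ICD induced in MB157R, DUOX2, DUOXA1 and DUOXA2 had no overlap between groups, 3 of 4 genes against 28.0% of 20361 entries, with nothing read from the count. DUOX2 stood at 1.93 times its level in MB157R iEV (counting interval 1.71 to 2.13) and DUOXA1 at 1.64 times (1.50 to 1.82). DUOX1 stood at 1.12 times (1.06 to 1.21), with overlapping libraries. These values do not return toward the parental ones: MB157R iN1-ICD stood at 749.7 times the parental level for DUOX1, 68.7 times for DUOX2 and 143 times for DUOXA1. DUOX1 and DUOXA1 passed the authors' filter in this comparison. SOX2 was 18.8 ± 1.42 CPM in MB157R iN1-ICD and fell by 1.67 on the log2 scale from MB157R iEV.

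DUOX1 and DUOX2 are close paralogs, and this bears on how their counts were divided. Over 4469 aligned bases of the reference transcripts (GENCODE 44) they were 86.2% identical. The longest stretch in common had 317 bases, from exon 6 to exon 9 of both genes, and 7.37% of the 5424 windows of 60 bases in the DUOX1 transcript, the read length, also occurred in DUOX2. Exon 7 is shown because its 167 bases are the same in both genes, so that a read within it can be placed only through its mate. It lies at chr15:45135782-45135948 on the plus strand in DUOX1 and at chr15:45111111-45111277 on the minus strand in DUOX2, and is printed in lower case, without marks, in the direction of transcription.
DUOX1 and DUOX2 exon 7: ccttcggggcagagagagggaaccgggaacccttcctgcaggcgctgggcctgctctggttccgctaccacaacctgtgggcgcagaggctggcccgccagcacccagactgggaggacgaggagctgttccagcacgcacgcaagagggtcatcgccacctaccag

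The authors' counts are estimates, which need not be whole. DUOX1 was not a whole number in 6 of 6 MB157R libraries, for example 615.389 in MB157R iEV replicate 2, where DUOX2 was 163.61. The sum of DUOX1 and DUOX2 was whole, to within 0.002, in 12 of 12 libraries. The division between both genes thus holds an estimated part, whereas the sum does not depend on it. DUOXA1 and DUOXA2 shared no window of 60 bases and no run longer than 17 bases.

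Taken as a sum, DUOX1 and DUOX2 stood at 0.131 ± 0.0503 CPM in MB157 iEV, 0.414 ± 0.0930 in MB157 iSOX2, 17.6 ± 1.33 in MB157R iEV and 23.0 ± 1.69 in MB157R iN1-ICD. The libraries of these groups did not overlap. The sum in MB157R iEV was 134-fold that in MB157 iEV (counting interval 81.8 to 242), and that in MB157 iSOX2 was 3.16-fold (1.78 to 6.11). With N1-ICD the sum was 1.30 times that of MB157R iEV (1.24 to 1.38). The 15 counts in MB157 iEV were 5, 7 and 3 by library, and DUOX2 made up 13 of them.

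The share of DUOX2 in the sum was 20.1%, 21.0% and 26.1% in the MB157R iEV libraries and 28.2%, 40.0% and 30.2% in the MB157R iN1-ICD libraries. All MB157R iN1-ICD libraries had a larger share, at means of 32.8% ± 6.34 against 22.4% ± 3.22 (SD, n = 3). Replicate 2 of MB157R iN1-ICD had the largest share, with DUOX2 at 9.96 CPM against 6.35 and 6.52 CPM in replicates 1 and 3. DUOX1 stood at 14.9 CPM in replicate 2, against 16.2 and 15.1 CPM. NOTCH1 was lowest in replicate 2, at 1760 CPM against 2617 and 2588 CPM in replicates 1 and 3. Per kilobase of transcript, DUOX1 stood at 2.50 ± 0.268 CPM per kb in MB157R iEV, DUOXA1 at 1.63 ± 0.241 and DUOX2 at 0.619 ± 0.0621, and the libraries of neighbours in this order did not overlap. In MB157R iN1-ICD, DUOX1 at 2.81 ± 0.126 and DUOXA1 at 2.68 ± 0.111 CPM per kb overlapped, and DUOX2 was lower at 1.20 ± 0.320. DUOXA1 relative to both oxidases together, per kb, was 0.522 ± 0.0519 in MB157R iEV and 0.671 ± 0.0440 in MB157R iN1-ICD, again without overlap.

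**Figure D2:**
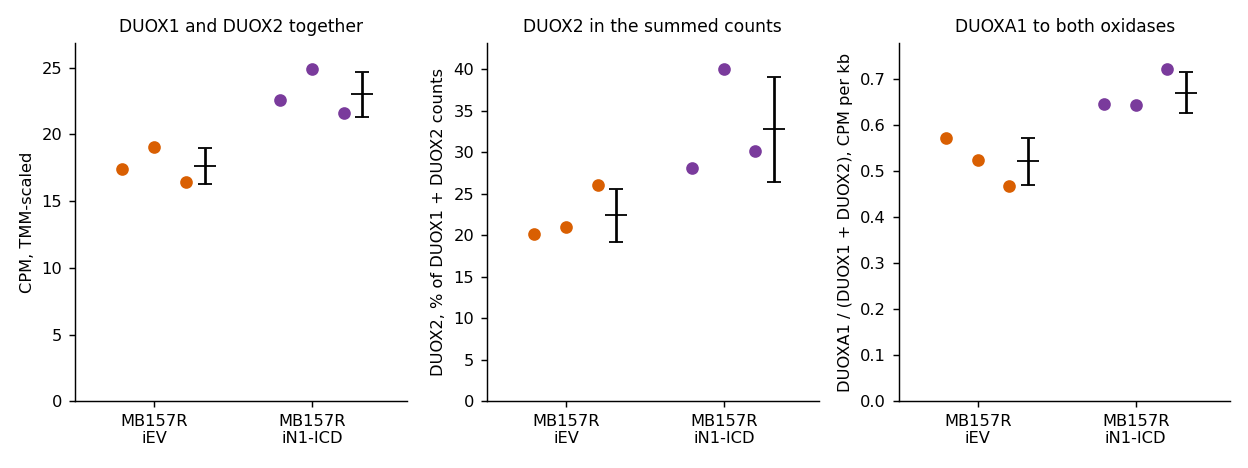
The sum of DUOX1 and DUOX2 in TMM-scaled CPM, the percentage of DUOX2 in that sum, and the ratio of DUOXA1 to both oxidases in CPM per kb, with 1 point per MB157R library and a bar with whiskers for the mean and SD of 3. In each panel the 3 MB157R iN1-ICD libraries lie above the 3 MB157R iEV libraries, with DUOX2 at 28.2% to 40.0% against 20.1% to 26.1% of the sum.

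The genes whose levels resembled those of the DUOX genes most across the 12 libraries were found among 15133 genes that reached 1 CPM in any group. Likeness was the root mean square difference between log2(CPM + 0.5) values centred on each gene's mean. The added 0.5 understates changes of low genes, so nearness on this scale need not mean an equal fold. The nearest to DUOX1 were ARHGAP23, NLRP3, NKX2-1, BMP2 and CPVL, at 0.150 to 0.175 log2 units. ARHGAP23 stood at 7.32 CPM in MB157 iEV and 200.7 CPM in MB157R iEV, against 0.0205 and 13.7 CPM for DUOX1. NLRP3, an inflammasome sensor, stood at 13.6 CPM in MB157R iEV and 13.8 CPM in MB157R iN1-ICD, and NKX2-1, a transcription factor of thyroid and lung, stood at 12.8 and 15.4 CPM. The nearest to DUOX2 were CPZ, OTUD1, GAD1, CACNG6 and MAFF (0.195 to 0.222). All were higher in MB157R iN1-ICD than in MB157R iEV, such as the small MAF transcription factor MAFF at 80.7 against 46.2 CPM. OTUD1 stood at 2.72 CPM in MB157 iEV and 20.4 CPM in MB157R iEV, against 0.111 and 3.93 CPM for DUOX2. The nearest to DUOXA1 were IL1RL2, IRF7, HVCN1, COL22A1 and NRK (0.150 to 0.165). IL1RL2, the receptor for interleukin-36, stood at 8.38 against 4.21 CPM and HVCN1, a voltage-gated proton channel, at 8.71 against 5.48 CPM. Among the DUOX genes themselves, DUOXA1 was 51st nearest to DUOX2 and 357th nearest to DUOX1, and DUOX2 was 633rd nearest to DUOX1. DUOXA1 was thus nearer on this scale to DUOX2 (0.314) than to its head-to-head neighbour DUOX1 (0.583).

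The chromosome around the cluster was examined in the same libraries, since genes on both sides differed too. Within 1 Mb of the cluster the files held 20 other genes. In MB157R iEV against MB157 iEV, 10 of them were tested, of which 9 were higher, 0 lower and 1 not called by edgeR's quasi-likelihood test at a Benjamini-Hochberg adjusted p under 0.05, and 5 of the 9 differed by at least 2-fold. Over all 11435 genes tested, 90.2% were called, 45.0% higher and 45.3% lower. Without the authors' filter 17 neighbours were tested, 14 higher and 1 lower, where 35.6% of 21060 genes were called higher and 37.6% lower. With the filter the median log2 fold change of the neighbours was 1.34 against -0.00 for all genes. SPG11, B2M and TRIM69, at 0 counts in MB157 iEV, passed the filter only through MB157R iEV and could not be called lower. GATM, at 4.12 CPM in MB157 iEV and 0.0543 CPM in MB157R iEV, was absent from the filtered table.

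SHF, an adaptor protein gene 1.64 kb beyond the end of DUOX1, stood at 9.44 ± 0.574 CPM in MB157R iEV and 2.15 ± 0.447 CPM in MB157 iEV. This was a rise of 2.14 ± 0.14 (SE) on the log2 scale, at an edgeR adjusted p of 8.1e-09. SORD, the sorbitol dehydrogenase gene on the other side of the cluster, stood at 135 ± 1.49 against 41.6 ± 0.703 CPM and rose by 1.70 ± 0.04 (SE) on the log2 scale, at an edgeR adjusted p of 6.3e-14. SORD has a near-identical pseudogene copy, so its counts are uncertain to that extent. AFG2B, CTDSPL2 and BLOC1S6 rose by 0.91, 0.98 and 0.94 on the log2 scale and EIF3J, a translation factor subunit, by 0.13. SLC30A4, a zinc transporter, was not called, at 4.85 ± 0.904 against 5.61 ± 0.727 CPM.

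A run of 4 genes to the left, SPG11, PATL2, B2M and TRIM69, had 0 counts in all 6 parental libraries. B2M, the light chain of MHC class I, stood at 699.9 ± 53.3 CPM in MB157R iEV, at least 27006-fold higher, and SPG11 and TRIM69 were at least 2423-fold and 152-fold higher, from counts against the floor of 3. PATL2 reached 16 counts in MB157R iEV and was not tested with the authors' filter. DUOX2 and DUOXA1 differed from this run in having counts in each parental library, whereas DUOXA2 was at 0 in all 6. DUOX1 was at 0 in 2 of the 3 MB157 iEV libraries but had 9, 4 and 9 counts in MB157 iSOX2. SORD, which lies between the run and the cluster, was at 41.6 CPM in MB157 iEV. To the right, COXFA4L3 (C15orf48 in the files), a mitochondrial subunit gene induced in inflammation, had 127 counts in MB157 iEV and 20991 in MB157R iEV, and SQOR, the sulfide quinone oxidoreductase gene, had 385 and 9585. Neither was in the authors' filtered table, so they were tested only in fits without that filter, and both were chosen after their values were seen. GATM, an enzyme of creatine synthesis, went the other way, at 4.12 ± 0.309 CPM in MB157 iEV and 0.0543 ± 0.0292 CPM in MB157R iEV. It too was absent from the filtered table of this comparison.

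**Figure D3:**
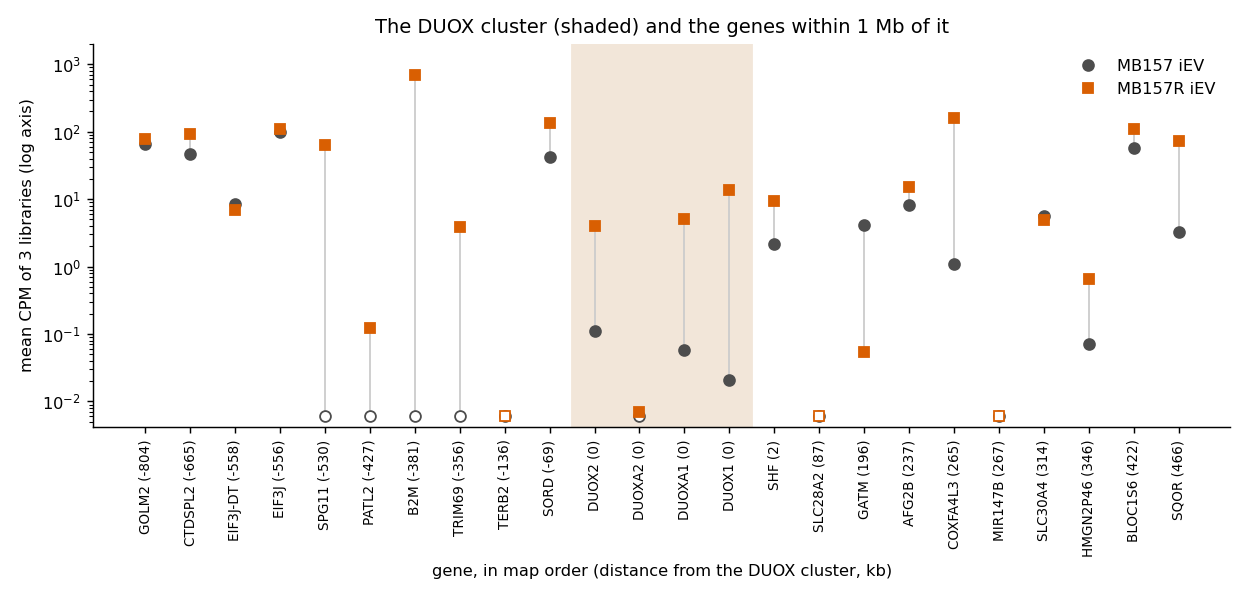
Mean CPM of 3 libraries, on a log axis, of the 4 DUOX genes (shaded) and 20 neighbours in map order, with the distance in kb from the cluster to the gene's start in parentheses, for MB157 iEV (circles) and MB157R iEV (squares), and open symbols at the bottom for 0 counts. SPG11, PATL2, B2M and TRIM69 are at 0 in MB157 iEV, while SORD and SHF, next to the cluster, stand at 41.6 and 2.15 CPM there and higher in MB157R iEV.

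With SOX2 induction 8 neighbours were tested, of which 2 were higher, 3 lower and 3 not called, where 66.4% of 10904 genes were called, 3539 higher and 3698 lower. With library totals alone, without TMM factors, the latter split was 4396 higher and 2859 lower, or 40.3% and 26.2%, and that of the neighbours 3 higher and 3 lower. The 2 were SHF, which rose 2.10-fold to 4.51 ± 0.536 CPM, and GATM, which rose 1.54-fold. The 3 lower genes, CTDSPL2, EIF3J and BLOC1S6, fell by 0.35, 0.24 and 0.23 on the log2 scale. With N1-ICD induction 9 were tested, of which 3 were higher, 3 lower and 3 not called, where 59.1% of 11210 genes were called, 29.8% higher. B2M, TRIM69 and EIF3J rose, by 0.35, 0.43 and 0.21 on the log2 scale. SORD fell by 0.39, SHF by 0.27 and BLOC1S6 by 0.14, so both immediate neighbours of the cluster were lower in the comparison in which DUOX2 and DUOXA1 stood higher. The calls of SHF and TRIM69 with N1-ICD were each lost when single libraries were left out (adjusted p up to 0.133 and 0.072 from edgeR).

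The other members of the NADPH oxidase system were measured as 19 genes, of which 11 were tested in MB157R iEV against MB157 iEV, 7 higher and 4 lower, with a median log2 fold change of 0.77. The median over all genes tested was -0.00 in each of the 3 comparisons, and the shares called higher and lower were 45.0% and 45.3% here, 32.5% and 33.9% with SOX2 and 29.8% and 29.3% with N1-ICD. Among the 5 other catalytic subunits only NOX4 exceeded 1 CPM in any group. NOX4, which makes hydrogen peroxide without regulatory subunits of the cytosol, had 0 counts in parental libraries and 11.4 ± 0.798 CPM in MB157R iEV, at least 437-fold higher, and fell by 0.85 on the log2 scale with N1-ICD, to 6.29 ± 0.392 CPM. Mean levels of CYBB, NOX1, NOX3 and NOX5 stayed at or under 0.349 CPM. NCF1, the p47phox subunit, rose 3.04-fold with N1-ICD to 6.41 ± 0.607 CPM, and its counts are uncertain because near-identical pseudogenes exist. RAC2, a small GTPase of phagocyte oxidases, stood at 107 ± 4.58 CPM in MB157R iEV and fell by 0.54 on the log2 scale with N1-ICD.

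NOXA1, the activator of NOX1, fell by 2.19 on the log2 scale in MB157R iEV, to 1.06 ± 0.296 CPM, and RAC3, another small GTPase, fell by 1.04. With SOX2 8 genes were tested, of which POLDIP2 rose by 0.11 and 4 fell, led by the scaffold gene SH3PXD2A, which fell by 0.85. With library totals alone the balance turned, to 2 higher and 1 lower. NOXA1 fell by 0.35 with SOX2, a call lost in a fit over all 12 libraries (adjusted p = 0.1 from edgeR). With N1-ICD 12 were tested, 4 higher and 7 lower, with a median of -0.19. TXNDC11, a thioredoxin-like protein known to bind dual oxidases, stood between 24.0 and 27.9 CPM in all groups.

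Heme peroxidases that could use the peroxide were in part absent and in part abundant. Of 8 genes, MPO had 0 counts in all libraries, and the means of LPO and EPX, the lactoperoxidase and eosinophil peroxidase genes, stayed at or under 0.0648 CPM in every group. In MB157R iEV 2 genes were tested, 1 higher and 1 lower, and without the authors' filter 7, 2 higher and 3 lower. The shares over all genes were 45.0% higher and 45.3% lower, and 35.6% and 37.6% without the filter. PTGS2, the inducible cyclooxygenase, stood at 0.147 ± 0.113 CPM in MB157 iEV, 163 ± 15.4 CPM in MB157R iEV and 599.7 ± 52.3 CPM in MB157R iN1-ICD, and was called higher in both comparisons of MB157R. Its log2 fold change of 10.09 in MB157R iEV became 10.94 without MB157 iEV replicate 3. PXDN, the peroxidase of basement membranes, fell by 0.55 on the log2 scale in MB157R iEV to 75.9 ± 2.19 CPM. It was not called with SOX2 (log2 fold change 0.07), although it was called higher with library totals alone (0.13), or with N1-ICD (0.06).

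Of 23 genes for the removal of peroxide and superoxide, 20 were tested in each comparison. Of all genes tested, 45.0% were higher and 45.3% lower in MB157R iEV. The shares were 32.5% and 33.9% with SOX2, and 29.8% and 29.3% with N1-ICD. In MB157R iEV 11 were higher and 7 lower, with a median of 0.29. The glutathione peroxidases GPX7 and GPX8 of the endoplasmic reticulum were 20.8-fold and 12.4-fold higher, while PRDX4, the peroxiredoxin of the same compartment, fell by 1.68 and TXNRD2 by 0.98 on the log2 scale. With N1-ICD 3 were higher and 13 lower, with a median of -0.21. GPX1 and CAT, the catalase gene, fell by 0.66 and 0.65, and the mitochondrial superoxide dismutase SOD2 rose by 0.92, from 140.3 ± 18.9 to 264 ± 10.5 CPM. With SOX2 6 were higher and 11 lower, where GPX3 rose 2.41-fold and GSR, glutathione reductase, 1.78-fold, and GPX4 and GPX1 fell by 0.47 and 0.46.

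NRF2, the factor that switches on antioxidant genes, and its targets were 19 genes. Of all genes tested, 45.0% were higher and 45.3% lower in MB157R iEV. The shares were 32.5% and 33.9% with SOX2, and 29.8% and 29.3% with N1-ICD. In MB157R iEV 17 were tested, 11 higher and 5 lower, with a median of 0.72. AKR1C3, an aldo-keto reductase, was 14.7-fold higher and SLC7A11, the cystine transporter, 9.72-fold, while TKT and KEAP1 fell by 0.50 and 0.39. With SOX2 16 were tested, 5 higher and 7 lower, a balance that turned to 7 higher and 6 lower with library totals alone. AKR1C1 rose 15.6-fold and AKR1C3 9.68-fold, though these genes have similar paralogs, and HMOX1, heme oxygenase, fell by 0.97 and NQO1 by 0.54. With N1-ICD 18 were tested, 4 higher and 7 lower. HMOX1 rose 1.43-fold to 17.4 ± 0.508 CPM and OSGIN1 1.21-fold, the latter a call lost with DESeq2 and other settings, and NQO1 fell by 0.46.

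The thyroid programme in which DUOX2 works was present in part. Of 14 genes, 6 were tested in MB157R iEV against MB157 iEV, 5 higher and 1 lower, and without the authors' filter 12, 7 higher and 3 lower. The shares over all genes were 45.0% higher and 45.3% lower, and 35.6% and 37.6% without the filter. NKX2-1 stood at 12.8 ± 0.764 CPM in MB157R iEV, 255-fold higher, and PAX8, its partner transcription factor, at 15.5 ± 0.568 CPM, 135-fold higher. The 135-fold rests on 13 counts of PAX8 in MB157 iEV, and its log2 fold change of 7.07 became 6.44 without MB157 iEV replicate 2 and 8.10 without MB157 iEV replicate 3. SLC5A5, the sodium iodide symporter, went from 17.7 ± 0.975 CPM in MB157 iEV to 0 counts, at least 778-fold lower. TG, the thyroglobulin gene, reached at most 0.596 CPM, and TSHR was at 0. With SOX2, FOXE1 rose 2.58-fold and HHEX 1.41-fold, and ANO1 and SLC5A5 fell by 2.43 and 1.06. With N1-ICD 5 were tested, 4 higher, among them FOXE1 (1.55-fold) and PAX8 (1.24-fold), where 29.8% of 11210 genes were called higher. ANO1, a calcium-activated chloride channel, fell by 0.59 from 589 ± 22.0 CPM.

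Receptors and factors of the cytokine and microbial signals that are known to raise DUOX genes formed a list of 24. In MB157R iEV 21 were tested, 16 higher and 5 lower, with a median of 0.89. The shares over all 11435 genes were 45.0% higher and 45.3% lower. IL4R, the interleukin-4 receptor, stood at 87.4 ± 2.97 CPM, 22.6-fold higher, and TLR4, the receptor for lipopolysaccharide, at 67.1 ± 2.88 CPM after 0 counts in MB157 iEV, at least 2575-fold higher. TLR5, the flagellin receptor, fell by 3.08 and IL17RA by 1.46. With SOX2 18 were tested, 9 higher and 5 lower, against 32.5% and 33.9% of 10904 genes. IL13RA1 rose 1.82-fold and STAT3 1.38-fold, and TLR5 and IRF1 fell by 0.74 and 0.72. With N1-ICD 22 were tested, 10 higher and 7 lower, against 29.8% and 29.3% of 11210 genes. IFIH1, a sensor of double-stranded RNA, rose 2.14-fold and TLR5 by 1.01 on the log2 scale, and TLR4 and IFNGR2 fell by 0.74 and 0.51.

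Mucosal defence genes that accompany DUOX2 in inflamed epithelium formed a list of 22. In MB157R iEV 11 were tested, 10 higher and 1 lower, with a median of 6.55, which without the authors' filter was 4.88 over 21 genes. TGM2, a transglutaminase, stood at 582 ± 15.8 CPM against 1 count in MB157 iEV, MUC4 at 64.1 ± 14.97 CPM was at least 2464-fold higher, and MUC1 fell by 3.45 to 0.992 ± 0.126 CPM. With SOX2 5 were tested and 5 were lower, with a median of -1.33. LCN2, lipocalin 2, fell from 2.11 ± 0.268 to 0.832 ± 0.154 CPM and MUC1 fell by 0.38 on the log2 scale. With N1-ICD 16 were tested and 16 were higher, with a median of 1.90, and 12 of them by at least 2-fold. Some of them passed the filter only through the MB157R iN1-ICD group and could hardly be called lower, such as S100A7 at 0.00693 against 1.02 CPM. Without the authors' filter 18 were higher and 0 lower of 20, with a median of 1.87, where 4505 of 20317 genes were called higher and 4165 lower. CEACAM6, an adhesion molecule of epithelia, stood at 6.77 ± 0.877 CPM after 0.0442 ± 0.0190, and PI3, the elastase inhibitor elafin, rose 54.4-fold to 568 ± 61.6 CPM. In the same comparison DUOX2 stood at 1.93 times its control level. Without the authors' filter 14 were higher and 3 lower of 21 tested in MB157R iEV, where 35.6% of 21060 genes were called higher and 37.6% lower. With SOX2 1 was higher and 8 lower of 21 without it, with a median of -0.79, where 22.7% of 20985 genes were called higher and 21.9% lower.

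The epidermal growth factor receptor axis, which peroxide from DUOX1 is known to trigger through ligand shedding in airway cells, formed a list of 8. In MB157R iEV 6 were tested, 5 higher and 0 lower, with a median of 2.55, where 45.0% of 11435 genes were called higher. Without the authors' filter 8 were tested, 7 higher and 0 lower, with a median of 3.81, where 35.6% of 21060 genes were called higher. AREG, amphiregulin, stood at 105 ± 3.84 CPM, 296-fold higher than its 0.356 CPM in MB157 iEV, and HBEGF at 170.3 ± 8.87 CPM, 18.5-fold higher. With N1-ICD 0 were higher and 4 lower of 6 tested, where HBEGF fell by 1.01 and AREG by 0.86. The shares over all 11210 genes were 29.8% higher and 29.3% lower. Without the authors' filter 1 was higher and 5 lower of 8, where 4505 of 20317 genes were called higher and 4165 lower. CXCL8, the interleukin-8 gene, was absent from the filtered table. It stood at 598 ± 12.2 CPM in MB157R iEV and 2094 ± 68.0 CPM in MB157R iN1-ICD, without overlap. With SOX2 5 were tested. HBEGF rose 1.22-fold and ADAM17, the sheddase, 1.12-fold, and TGFA fell by 0.86.

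**Figure D4:**
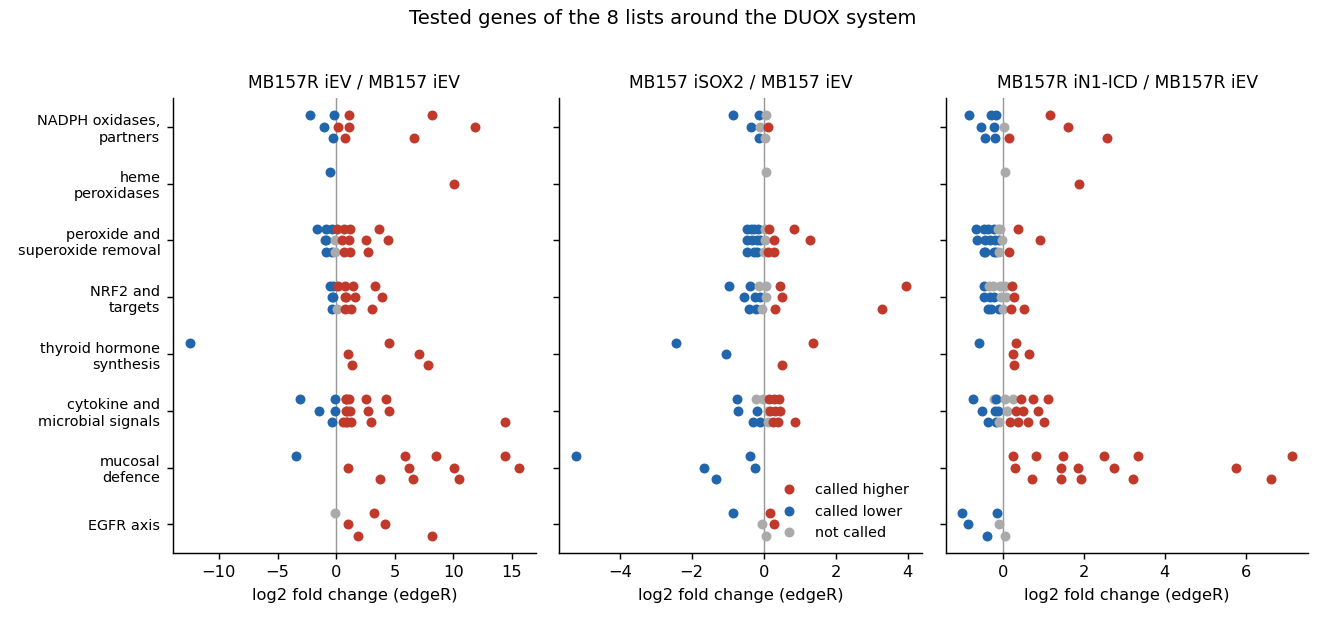
Log2 fold change from edgeR of every tested gene of the 8 lists, in 3 panels for the comparisons, with red points for genes called higher, blue for lower and grey for not called at an adjusted p of 0.05, and x axes that differ in scale. Mucosal defence genes lie to the right of 0 for 10 of 11 genes in MB157R iEV and for 16 of 16 with N1-ICD, and to the left for 5 of 5 with SOX2. Some of these genes passed the authors' filter only through the group in which they were high.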

How the data were processed

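Stranded mRNA libraries of 12 MB157 and MB157R samples were sequenced with paired reads of 60 bases. Reads were mapped to hg38 with STAR and quantified with Salmon by the authors, who deposited expected counts (estimated counts) per gene without normalization, for 29744 entries. They also deposited, for each comparison, log2 values of TMM-scaled CPM for the genes that passed their filter, made with edgeR 3.42.4 and limma 3.56.2 per the labels. According to the paper, the filter removed low values and also genes classed as uncharacterized, predicted or pseudogenes. Absence from a filtered table thus need not mean a low level, and COXFA4L3 at 158 CPM in MB157R iEV was absent. The gene annotation is not given in the sources used here. No column of another sample was present.

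Here the filtered tables were used for their gene lists of 11435, 10904 and 11210 genes. Counts were rounded, scaled by TMM with library sizes from all entries, and tested with edgeR's quasi-likelihood test on the 6 libraries of each comparison (R 4.3.3, edgeR 4.0.16), with Benjamini-Hochberg adjustment and no replicate block. Levels are TMM-scaled CPM over all 12 libraries, as mean ± SD of 3, and folds are ratios of these means. Where a group had 0 counts, it was given 3 counts in total as its floor, and the fold from summed counts is a bound. Counting intervals are exact 95% intervals of the ratio of summed counts. Library totals lay between 32773820 and 49055208, TMM factors between 0.978 and 1.03, and a chi-square of 3.73 or more per gene between replicates showed no library deposited more than once.

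The 4 genes, the 8 lists and the motifs were chosen with earlier results of these data known. Named beside the 4 genes, SOX2 and NOTCH1 were neighbours called in a comparison with at least 1 CPM in a group, the 2 largest rises and falls of each list with at least 1 CPM over 6 libraries, and the 5 genes nearest to each DUOX gene that reached 1 CPM. A few further genes were named to complete a family or after their values were seen. Positions and transcripts are from GENCODE 44 and RefSeq on GRCh38. Newer symbols were matched through RefSeq synonyms. Results were recomputed with limma-voom (limma 3.58.1), DESeq2 1.42.0, RLE factors or unscaled library totals, with a minimum mean count of 5 or without any filter, in a joint fit of the 12 libraries, with the replicate as a block, and without each library in turn. Some genes that this rule names are not reported here.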

Additional observations from a re-analysis of the deposited data

How the results depend on the processing

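Without a filter on low values 7914 genes were called lower in MB157R iEV against MB157 iEV, where more genes were tested, against 5177 with the authors' filter. Of the neighbours of the cluster 14 were called there with a mean count of at least 5 and 15 without a filter, against 9, and with N1-ICD 10 were called with a mean count of at least 5, against 6. Over the other alternatives the counts of called genes, of called neighbours and of called genes over all lists together stayed within 1.5 times. The ratios of the DUOX genes kept their direction under all scalings and when single libraries were left out. Without single libraries the log2 ratio in MB157R iEV lay between 8.80 and 9.46 for DUOX1, 4.93 and 5.57 for DUOX2 and 6.14 and 6.99 for DUOXA1, and that with N1-ICD between 0.09 and 0.24, 0.71 and 1.07, and 0.60 and 0.78. Without MB157 iEV replicate 1, DUOX1 had 0 counts in that group and no ratio could be formed. Of 94 fold changes of named genes none reversed and 7 lost their call under at least 1 alternative (HHEX, NOXA1 and POLDIP2 with SOX2, and OSGIN1, PAX8, SHF and TRIM69 with N1-ICD).

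Same-numbered libraries did not deviate together (correlations between -0.172 and 0.0777 over 17102 genes). Whether equal numbers mark matched cultures is not stated in the labels, and these correlations cannot tell. With a replicate block 10247, 7019 and 6422 genes were called, against 10318, 7237 and 6621. Depth limits the parental values, which rest on 0 to 14 counts per library, and differences between both parental groups were not detectable at this depth for DUOXA1 or DUOXA2. No plot, test or sequence here bears on protein or on hydrogen peroxide.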
